A study of Mus musculus with 30 samples.

Results

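The late phase after a cortical stroke was compared directly with the acute phase in the denervated cervical spinal cord, by setting the 5 animals killed 28 d after injury (28 dpi) against the 4 killed at 4 dpi. These are 9 of the 29 animals with values, and all 16995 genes of the table were compared. All animals were adult female C57BL/6 mice (C57BL/6J in the study's methods) and no transgene or drug is named for them. Both groups had received a photothrombotic stroke of the right sensorimotor cortex, in which light closes the vessels of the illuminated cortex after a dye is injected, while the 5 sham animals named here as a reference were not illuminated. The tissue was the intermediate layer of the spinal levels C5/C6 on the side that lost its corticospinal input, trimmed by blade, and 1 sample was taken per animal. The animals at 28 dpi carried the label units A3 and A4 and those at 4 dpi the units A9 and A10, so unit and time point cannot be told apart. Unit A3 also holds 1 animal of 42 dpi, A3-4. Another animal labelled 4 dpi was not analysed here.

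When a corticospinal axon is cut off from its cell body, its spinal branches degenerate and are cleared by microglia, the resident phagocytes of the cord. Microglia that respond to such debris divide and carry more complement proteins, Fc receptors and lysosomal proteases, and astrocytes nearby make more of the filament protein GFAP. In the following weeks spared corticospinal fibres sprout across the midline into the denervated grey matter, where guidance cues, growth factors and synaptic scaffold proteins act on them. In whole tissue, fewer cells of a type and less RNA per cell cannot be told apart.

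The values are the study's normalised read counts (CPM), and differences are given as 28 dpi minus 4 dpi on the log2(value + 0.5) scale, which understates the change of low genes. A gene was called a significantly differentially expressed gene (SDEG) when its adjusted p from limma was under 0.05 and its fold change above 1.5. The markers fitted the labelled tissue: Hoxc5, a position gene of the cervical cord, lay between 14.5 and 20.0 in the 9 animals, and the glycinergic transporter gene Slc6a5 between 284.2 and 479.2. Of 7 markers of forebrain and hindbrain 2 were among the tested genes, and both were low, Neurod6 at 0.8 to 2.2 and Barhl1 at 0.3 to 1.6. Of 10 leukocyte markers 4 were tested, Cd4, Cd8a, Ccr2 and Ms4a1, with group means of 0.45 to 1.46. Pairs of animals correlated at 0.985 to 0.990 within 4 dpi, 0.974 to 0.988 within 28 dpi and 0.958 to 0.988 between the groups, across genes, which are not independent replicates. The animals differed in ribosomal RNA, for which Rn18s-rs5, an annotated copy of the 18S gene, stands here. Its value was 18295.2, 29279.1, 20579.1 and 114025.9 at 4 dpi and 417970.5, 779159.7, 44755.2, 291949.9 and 323192.5 at 28 dpi, in the order A10-1, A10-4, A9-2, A9-4 and A3-1, A3-3, A4-1, A4-3, A4-4 that is kept below. Only A4-1 among the 28 dpi animals lay within the 4 dpi range.

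Between 4 and 28 dpi, 491 genes rose and 247 fell, which is 2.89% and 1.45% of the genes tested. The median difference of all genes was 0.00057. By adjusted p alone 1401 genes were higher and 1988 lower at 28 dpi (8.24% and 11.7%), so that a larger share of the genes that were lower stayed within the fold limit. The values of the groups did not overlap in 863 genes that were higher and 728 that were lower at 28 dpi, or 5.08% and 4.28%. With Rn18s-rs5 as a covariate limma called 0 genes in either direction, while 2915 genes had an unadjusted p under 0.05. With A4-1 as the only 28 dpi animal it called 3 higher and 1 lower, with 1594 genes at an unadjusted p under 0.05. A fit of the 9 animals alone called 163 and 39, all of them among the SDEGs above. Leaving out 1 animal gave 167 higher and 87 lower genes without A3-3, 232 and 94 without A10-1, 240 and 141 without A9-4, 377 and 149 without A4-3 and 465 and 100 without A4-4. The number of lower genes was larger without A3-1 (659 and 465), A4-1 (530 and 507), A9-2 (518 and 441) or A10-4 (577 and 256). Scaling moved the split between higher and lower genes. Median centring, under which the median difference of all genes was 0.0414, gave 635 and 162, and quantile normalization 366 and 298. An equal sum in every animal, under which that median was -0.737, gave 43 and 11123, or 79 and 5 relative to that median.

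**Figure D1:**
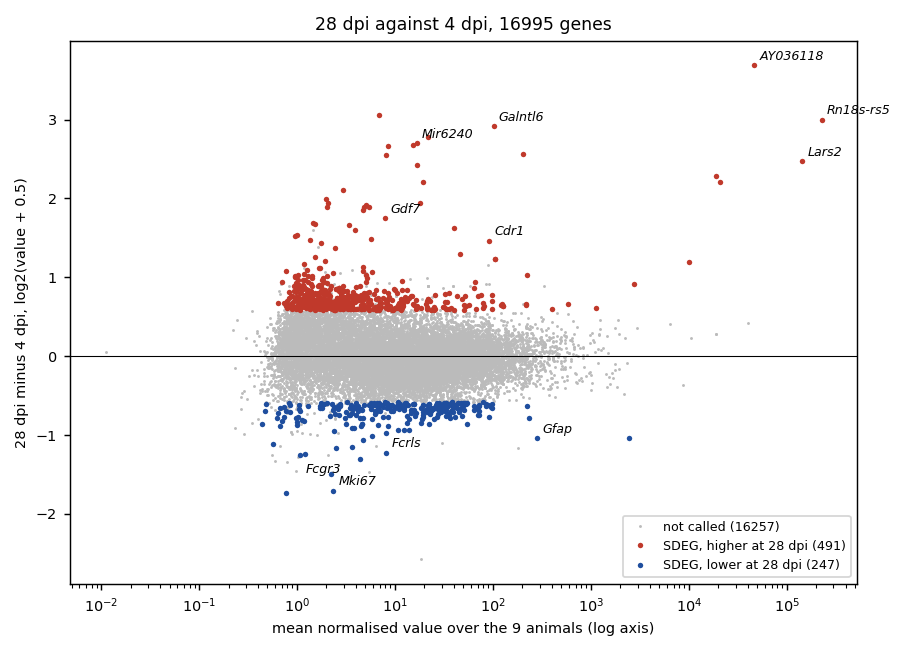
Difference between 28 and 4 dpi on the log2(value + 0.5) scale against the mean normalised value over the 9 animals (log axis), 1 point per gene, with SDEGs in red (491 higher) and blue (247 lower). AY036118, Rn18s-rs5 and Lars2 stand at the upper right, high and far above 0, and the genes that fell reach less far from 0 than those that rose.

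Some genes of microglia and of the complement cascade fell, with 5 of 16 for complement and Fc receptors, 2 of 15 for homeostatic and 3 of 23 for activated microglia. Fcgr3, Fcgr2b, Trem2, C4b, the C1q genes, Csf1r, Clec7a, Lag3 and Cd74 are early genes that the study named on these animals. Their direction is thus not independent evidence. Fcgr3, an activating receptor for immunoglobulin G on microglia, was at 6.2, 8.6, 4.8 and 7.6 at 4 dpi and at 3.2, 2.3, 3.2, 1.5 and 2.2 at 28 dpi, against 2.0 to 3.3 in sham. Every 28 dpi animal lay below every 4 dpi animal, and the difference was -1.30 ± 0.20 (SE, adjusted p = 0.00141 with limma). Fcrls, a receptor-like gene used to tell microglia from blood-derived macrophages, went from 10.9, 18.4, 7.5 and 12.3 to 6.0, 5.5, 5.3, 3.7 and 3.6. It fell by 1.22 on the log2 scale without overlap (SE 0.20, adjusted p = 0.00236), to the range of sham (4.7 to 6.4) or below it. Tyrobp, the adaptor through which Fc receptors and TREM2 signal, fell by 1.06 (SE 0.32, adjusted p = 0.0226), but A3-1 at 4.6 and A4-1 at 4.7 lay above the lowest 4 dpi animal, A9-2, at 3.7, and the call was lost in 10 of 22 alternatives, the fit of the 9 animals among them.

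The 3 genes of C1q, the first component of the classical complement pathway, were called lower, but C1qa lost its call in 9 of 22 alternatives and C1qb in 8, the fit of the 9 animals and those without A10-1, A10-4 or A9-4 among them. C1qc lost it in 4, the fit of the 9 animals included. C1qc was at 16.4, 26.4, 10.6 and 23.1 at 4 dpi and at 9.9, 7.7, 16.0, 6.9 and 7.7 at 28 dpi, a difference of -0.94 ± 0.23 (SE, adjusted p = 0.00958). C1qb differed by -0.85 (SE 0.24, adjusted p = 0.0165) and C1qa by -0.76 (SE 0.23, adjusted p = 0.0233). In all 3 genes A4-1 was the highest 28 dpi animal, at 16.0 for C1qc, 14.5 for C1qb and 17.3 for C1qa, above the lowest 4 dpi animal, so the groups overlapped. With A4-1 as the only 28 dpi animal the difference of C1qc was -0.17. Of 16 measured genes for complement and Fc receptors, 5 fell and 0 rose, with a median of -0.37. C4b, which acts next in the cascade, was not called: its values of 18.3, 40.6, 13.7 and 13 spread as widely as the 28 dpi values of 29.3, 9.5, 31.9, 14.3 and 11.1. Of the 31-base words of C4b 48.3% occur in other genes, chiefly C4a. Trem2 and Fcgr2b, a sensor of lipids and the inhibitory Fc receptor, were not called either, at -0.40 and -0.34.

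Among 15 genes of homeostatic microglia, 2 fell and 0 rose, with a median of -0.42, and by adjusted p alone 6 were lower and 1 higher. The one that was higher was the transcription factor gene Sall1, at 0.30 (adjusted p = 0.0336). Fcrls was one of them. The colony-stimulating factor receptor gene Csf1r, which microglia need to survive, did not overlap between the groups (40.7 to 62.2 against 33.1 to 40.0), but its difference of -0.53 was within the fold limit (adjusted p = 0.00955). The purinergic receptor gene P2ry12 had a difference of -0.45 (adjusted p = 0.0174), also within the limit. Cx3cr1 and Tmem119 did not pass the test, at -0.18 and -0.28, with adjusted p of 0.271 and 0.169. Of 23 genes of activated microglia and lysosomes, 3 fell and 0 rose, with a median of -0.46 and 10 below 0 at an adjusted p under 0.05. The 3 were Cd52, Cd9 and the cathepsin gene Ctss, and Cd52 went from 1.7, 2.4, 0.9 and 2.2 to 0.8, 0.5, 0.8, 0.2 and 0.1 (-1.25 ± 0.31, SE, adjusted p = 0.00987). Clec7a, a receptor of phagocytes, had a difference of -0.99 that did not pass (adjusted p = 0.0935), and Lag3 and Cd74 did not pass either, at 0.22 and 0.27. Cd74, the invariant chain of MHC class II, was at 0.7 to 0.9 at 4 dpi and 0.3 to 1.9 at 28 dpi.

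The mean over each list put the 28 dpi animals in different places. For complement and Fc receptors A4-1 was at -0.04 and A3-1 at -0.14 relative to the 4 dpi mean, within the 4 dpi range of -0.39 to 0.42, while A3-3, A4-3 and A4-4 were at -0.67, -0.71 and -0.70. Relative to sham, the list's median was 0.75 at 4 dpi and 0.22 at 28 dpi, and that of activated microglia and lysosomes 0.59 and 0.17. By list mean A3-1 and A4-1 stood above the sham animals in both lists at 28 dpi. A3-3, A4-3 and A4-4 lay within the sham range for complement (-0.87 to -0.53), and at -0.56, -0.69 and -0.70 for activated microglia, where sham lay between -0.68 and -0.59, so that A3-3 was just above sham in that list.

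Of the markers of dividing cells Mki67 and Top2a fell, and most of the others did not pass. Mki67, made in cycling cells, was at 3.7, 2.4, 4.8 and 5.6 at 4 dpi and at 1.1, 0.6, 1.3, 0.5 and 1.0 at 28 dpi, against 0.9 to 2.0 in sham. It fell by 1.71 on the log2 scale (SE 0.26, adjusted p = 0.00141). Top2a, the topoisomerase of dividing cells, went from 3.1, 2.8, 4.0 and 5.5 to 1.6, 0.7, 2.3, 1.5 and 1.2 (-1.16 ± 0.20, SE, adjusted p = 0.00252). The groups overlapped in neither gene, and A4-1 was the highest 28 dpi animal in both. Of 12 measured proliferation genes these 2 fell and 1 rose, with a median of -0.26, and Pcna was lower within the fold limit. The other 8, among them Mcm2, Cdk1 and Ccna2, did not pass. The one that rose was Tyms, the thymidylate synthase gene, at 0.70 (adjusted p = 0.00541), and 11.4% of its 31-base words also occur in other genes. In A4-1 alone the proliferation list's median, relative to that of all genes, was -0.19. The 7 dpi animals lay between 0.7 and 2.6 for Mki67, of which A7-3, at 2.6, was above the sham range and the lowest 4 dpi animal, as the plot of 8 genes in all animals shows.

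**Figure D2:**
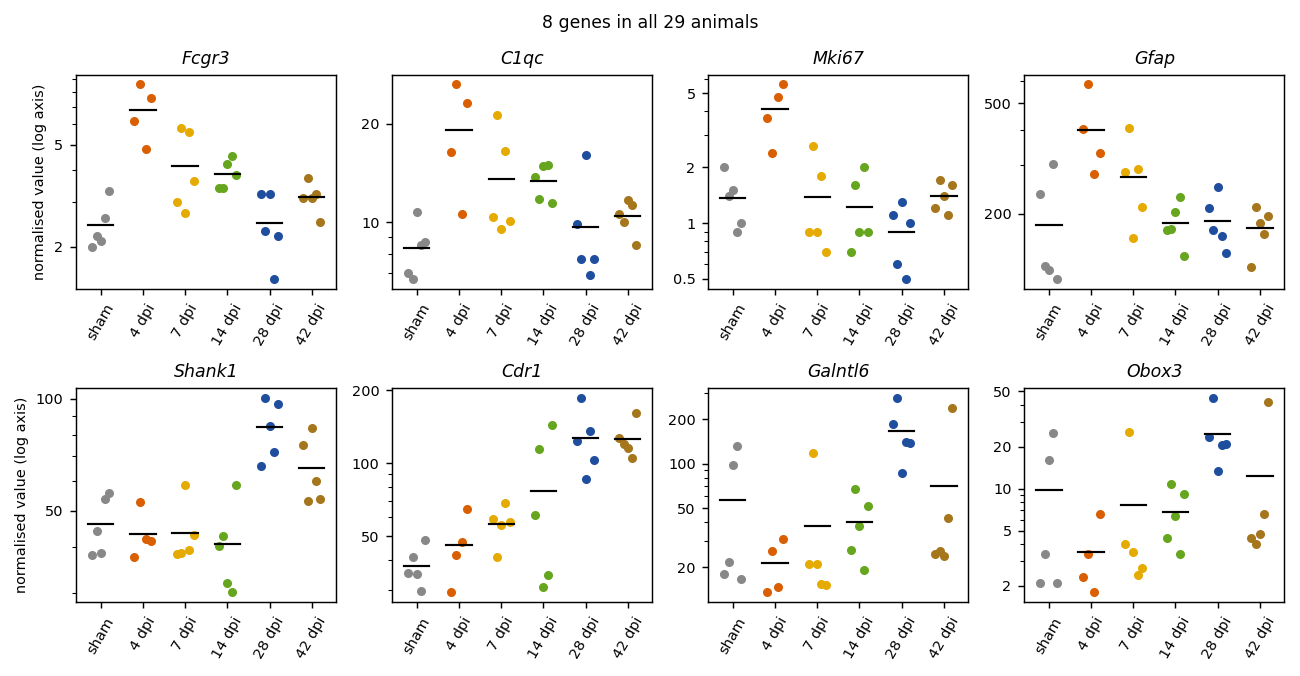
Normalised values (log axis) of 8 genes in all 29 animals by group, 1 point per animal, with black lines at the group means. Fcgr3, C1qc, Mki67 and Gfap are highest at 4 dpi. Shank1 and Cdr1 are high at 28 and 42 dpi, and Cdr1 also in A5-3 and A6-3 at 14 dpi. Galntl6 and Obox3 are high in all 5 animals at 28 dpi but also in 2 sham animals, 1 at 7 dpi and 1 at 42 dpi.

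Gfap, the filament of reactive astrocytes, was at 405.2, 584.3, 277.5 and 330.6 at 4 dpi and at 210.8, 175.1, 249.2, 167.2 and 144.8 at 28 dpi. The groups did not overlap, the difference was -1.04 ± 0.25 (SE, adjusted p = 0.00892), and the sham animals ranged from 116.9 to 303.3. It was the only SDEG among 10 measured genes of reactive astrocytes, whose median was -0.31. With A4-1 as the only 28 dpi animal the list's median, relative to all genes, was 0.171, and the list mean of A4-1 lay within the 4 dpi range of -0.16 to 0.21. Serpina3n, a protease inhibitor often used to mark reactive astrocytes, was at 23.3 to 30.0 and 17.3 to 29.6 and was not called. Of 12 genes of homeostatic astrocytes 0 were SDEGs, but 5 were lower at an adjusted p under 0.05. In Aqp4, the water channel of astrocyte endfeet, the groups did not overlap (350.2 to 422.8 against 273.9 to 294.0), with a difference of -0.40. Aldh1l1, a pan-astrocyte enzyme gene, behaved alike, at 45.9 to 52.0 and 35.6 to 39.7 (-0.38, adjusted p = 0.00407). The glutamate transporter Slc1a2 was not called, at 0.24.

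Other single genes without overlap made up the rest of the largest falls. The largest of all SDEGs was Gm43079, a predicted gene listed at 0 in 4 of the 28 dpi animals (-1.74 ± 0.34, SE, adjusted p = 0.00471), which shares 94.9% of its 31-base words with other genes, chiefly Acad9. Hpgd, which inactivates prostaglandins, went from 8.4, 10.6, 6.4 and 7.9 to 5.4, 3.8, 4.2, 3.4 and 2.7 (-1.01 ± 0.19, SE, adjusted p = 0.00358). The neighbouring genes Tmem176b and Tmem176a, membrane proteins of myeloid cells, fell by 0.93 and 0.87, with SE of 0.14 and 0.16. They lie on opposite strands and overlap, with 1.23% and 0.854% of their 31-base words shared. C1qtnf5, at -0.80, shares 90.2% of its 31-base words with other genes, chiefly Mfrp, and the ribosomal pseudogene Rpl27-ps3, at -0.80, shares all of them. The ribosomal protein gene Rpl39 fell by 0.85 (SE 0.21), a call lost in 4 of 22 alternatives, the fit of the 9 animals among them. The mitochondrial asparagine tRNA mt-Tn fell by 0.89 (SE 0.18), while 0 of 13 mitochondrially encoded OXPHOS genes were called. The metallothioneins, small proteins that bind zinc and copper and that glucocorticoids and metals induce, fell as a pair: Mt2 went from 29.7, 26.8, 21.4 and 21.4 to 18.1, 10.8, 19.2, 14.6 and 9.5 (-0.80 ± 0.20, SE, adjusted p = 0.0103). Mt1 differed by -0.75 (adjusted p = 0.0113), and A4-1 at 79.9 lay above the lowest 4 dpi animal at 72.6. Mt1 lost its call in 6 and Mt2 in 3 of 22 alternatives. Of the 31-base words of Mt2 58.1% occur in other genes, chiefly Gm45774. The sham ranges of 14.5 to 33.4 for Mt2 and 52.1 to 116.3 for Mt1 took in most values of both groups.

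Of 16 interferon-stimulated genes 2 fell, Ifit3 (7.2 to 7.7 against 2.8 to 6.6) and Bst2 (0.8 to 2.1 against 0.4 to 1.0), with a list median of -0.26. Their adjusted p was 0.0462 and 0.0460, and Ifit3 lost its call in 15 of 22 alternatives and Bst2 in 15 of 21, the fit of the 9 animals among them. Of 9 measured genes of MHC and antigen presentation 2 fell, the immunoproteasome subunit gene Psmb8 at -0.82 and the MHC class I light chain gene B2m at -0.63 (adjusted p = 0.0123 and 0.00800), of which Psmb8 lost its call in 4 and B2m in 7 of 22 alternatives. Of 4 measured leukocyte genes, 0 fell and 1 rose, the B-cell gene Ms4a1, at 0.3 to 0.5 and 0.8 to 2.1. Ms4a1 lost its call in 3 of 21 alternatives, the fit of the 9 animals among them. Cd3e, S100a8 and S100a9 were not among the tested genes. Pomc, the gene of the pituitary hormone precursor, was among the 5 largest falls, from 0.4, 2.8, 7.4 and 5.0 to 0.1, 1.3, 2.2, 0.9 and 0.1 (-1.49 ± 0.46, SE, adjusted p = 0.0249), with overlap, and lost its call in 7 of 22 alternatives. The pituitary hormone genes Prl and Gh were not called, at 0.4 to 6.9 and 0.7 to 5.4 at 4 dpi and 0.1 to 7.7 and 0 to 4.5 at 28 dpi, and A4-1 held the highest 28 dpi value of both. The part of pituitary RNA in the result for Pomc was not tested.

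The lists with the most members lower at 28 dpi were those of mitochondrial respiration and of the ribosome. Of 77 nuclear genes of oxidative phosphorylation (OXPHOS), which make the subunits of the respiratory complexes and the ATP synthase, 30 fell and 0 rose, and 72 were lower at an adjusted p under 0.05. Their median was -0.55, with all 77 differences below 0. Of 75 cytosolic ribosomal protein genes 36 fell and 0 rose, 68 were lower at an adjusted p under 0.05, and the median was -0.58. Rps29 went from 82.4, 72.6, 59.0 and 73.7 to 50.5, 32.4, 59.6, 35.6 and 26.1 (-0.86 ± 0.17, SE, adjusted p = 0.00539). The respiratory complex I gene Ndufb9 went from 74.2, 62.3, 56.1 and 65.8 to 52.2, 38.8, 58.1, 34.9 and 31.8 (-0.61 ± 0.13, SE, adjusted p = 0.00573). In both genes A4-1 lay within the 4 dpi range. Ndufb9 lost its call in 11 of 22 alternatives, the fit of the 9 animals, median centring and the correction for length and GC among them, and Rps29 in 3. Of 37 proteasome genes 3 fell and 1, the thymus-type subunit gene Psmb11, rose, and 27 were lower at an adjusted p under 0.05, with a median of -0.35.

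The OXPHOS and ribosomal protein lists separated the 28 dpi animals from each other. The OXPHOS mean was at -0.79, -0.67 and -0.85 in A3-3, A4-3 and A4-4, but at -0.19 in A3-1 and -0.11 in A4-1, both within the 4 dpi range of -0.21 to 0.23. Ribosomal protein genes had the same order, with -0.81, -0.75 and -0.91 in A3-3, A4-3 and A4-4, and -0.18 and -0.14 in A3-1 and A4-1. One sham animal, A11-1, was at -0.52 for OXPHOS and -0.57 for ribosomal proteins, below every 4 dpi animal. With A4-1 as the only 28 dpi animal the medians relative to all genes were -0.15 for OXPHOS and -0.16 for ribosomal proteins. Relative to sham, the OXPHOS median was 0.08 at 4 dpi and -0.45 at 28 dpi, and that of ribosomal proteins 0.14 and -0.46. The differences also ran with gene length: the median over protein-coding genes was -0.13 in the shortest of 5 bins of length (2705 genes, up to 761 bases) and 0.09 in the longest (3021 genes, from 2881 bases). After correction for gene length and GC content the medians relative to all genes were -0.45 for OXPHOS and -0.47 for ribosomal proteins.

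Nuclear respiratory factor 1 (NRF-1) is a transcription factor of OXPHOS genes that binds a GC-rich palindrome. Its 8-letter core, GCATGCGC, read on both strands, stood in the 250 bases before the start in 8 of 68 promoters of OXPHOS genes (11.8%, 63 genes matched by symbol), in 3.82% of the 15099 promoters of tested genes, and in 2.26% of all 32841 promoters of the same length. It stood in 0 of 65 promoters of ribosomal protein genes and in 3.52% of the 199 promoters of SDEGs that were lower, near the share of all tested genes. Of the 8 OXPHOS genes with the core, Atp5k, Ndufa6, Atp5l and Ndufa11 were called lower, while Cox6a1, Sdhb, Ndufa8 and Atp5g2 were not. A match is a description of the letters only. The 2 stretches shown are those of complex I genes that fell, whose windows end where the gene's annotated span begins. The promoter sequences are from RefSeq on GRCm38.p6, 5′ to 3′ on the gene's strand, with the core in capitals. Ndufa6 lies on the minus strand (window chr15:82354292-82354541) and differed by -0.69 (adjusted p = 0.00975). Ndufa11 lies on the plus strand (window chr17:56717512-56717761), differed by -0.59 (adjusted p = 0.0208), and holds 2 overlapping matches, 1 on each strand.
Ndufa6: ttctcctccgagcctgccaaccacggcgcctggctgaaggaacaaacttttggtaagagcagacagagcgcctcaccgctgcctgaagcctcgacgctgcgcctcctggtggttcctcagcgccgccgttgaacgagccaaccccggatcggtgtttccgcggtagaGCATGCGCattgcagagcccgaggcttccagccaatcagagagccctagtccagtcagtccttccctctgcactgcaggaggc
Ndufa11: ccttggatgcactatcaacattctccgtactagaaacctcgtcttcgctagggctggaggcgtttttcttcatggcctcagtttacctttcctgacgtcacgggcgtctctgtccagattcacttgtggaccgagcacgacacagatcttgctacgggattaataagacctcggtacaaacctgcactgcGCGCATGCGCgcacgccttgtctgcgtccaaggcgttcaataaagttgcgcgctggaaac

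**Figure D3:**
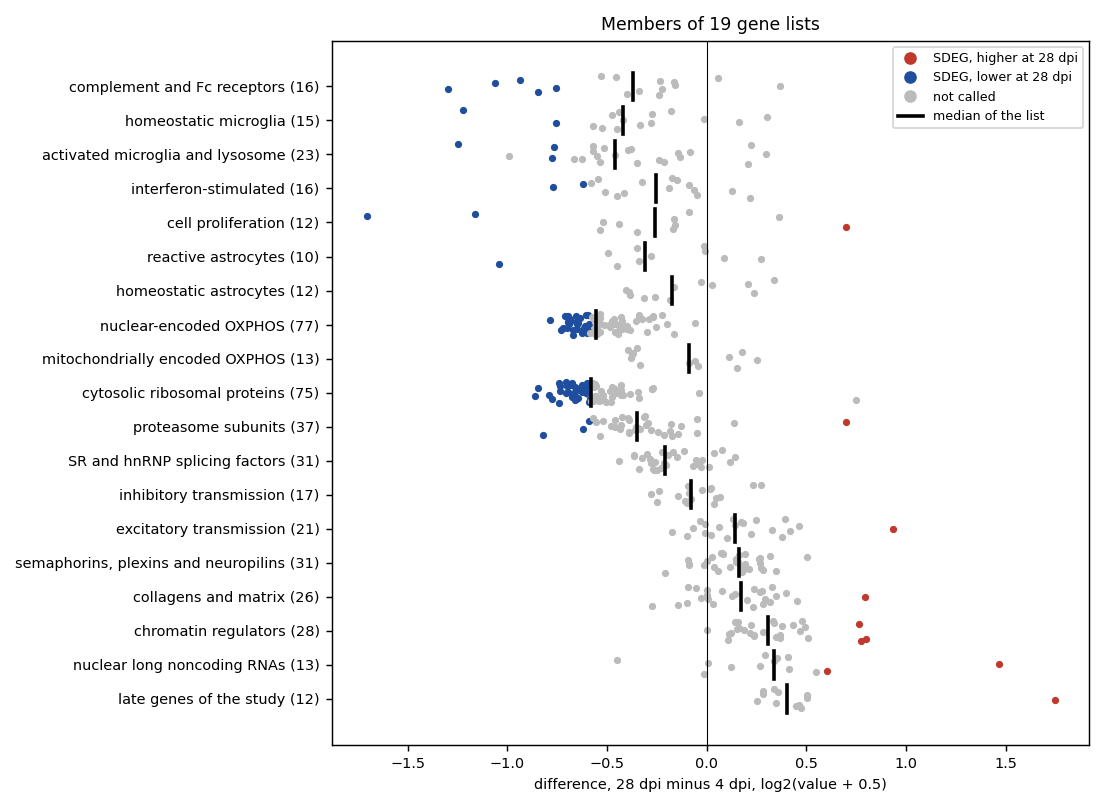
Differences between 28 and 4 dpi on the log2(value + 0.5) scale for the members of 19 gene lists (number measured in brackets), with SDEGs in red or blue, other members in grey and the list median as a black line. The medians of nuclear-encoded OXPHOS (-0.55) and ribosomal proteins (-0.58) are the lowest of those drawn, and the late genes of the study have the highest, at 0.40.

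All 28 chromatin regulators had a difference above 0, with a median of 0.31. Of these 3 rose, and 17 were higher at an adjusted p under 0.05. Kmt2d, a histone H3 lysine 4 methyltransferase gene, went from 45.3, 67.9, 63.4 and 41.0 to 69.6, 110.2, 98.2, 76.1 and 111.3 without overlap (0.78 ± 0.23, SE, adjusted p = 0.0197). Setd1b, of the same enzyme family, rose by 0.80, and its groups overlapped. Both genes were picked with their values in view, and Kmt2d lost its call in 7 and Setd1b in 6 of 22 alternatives. A4-1 was at 0.28 for the mean of this list, between A3-1 at 0.14, which lay within the 4 dpi range of -0.19 to 0.16, and A4-4 at 0.48. Relative to sham the list's median was 0.04 at 4 dpi and 0.32 at 28 dpi.

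At the synapse, Shank1, a scaffold of the excitatory postsynaptic density, was at 37.5, 52.7, 42.1 and 41.4 at 4 dpi and at 65.9, 100.7, 84.4, 72.0 and 96.5 at 28 dpi. It rose without overlap by 0.93 (SE 0.17, adjusted p = 0.00326), above the sham range of 38.0 to 55.8, and A4-1, at 84.4, was the middle animal of its group. It was the only SDEG of 21 measured genes of excitatory transmission, of which 6 were higher and 0 lower at an adjusted p under 0.05. Shank2 and the NMDA receptor subunit gene Grin2b, which were among these 6, had differences of 0.38 and 0.39, within the fold limit. Of 17 genes of inhibitory transmission 0 were called, with a median of -0.08. Vesicle and release genes had a median of 0.00261 and 0 SDEGs among 18.

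Growth and guidance genes mostly stayed within the fold limit. All 12 late genes that the study names had a difference above 0, with a median of 0.40, but only Gdf7 was called, and the list was chosen by the study on these animals, so it is not independent evidence of direction. Gdf7, a bone morphogenetic protein of the dorsal cord, was at 1.8, 1.7, 1.6 and 6.5 at 4 dpi and at 11.5, 22.9, 1.9, 13.5 and 9.4 at 28 dpi (1.75 ± 0.56, SE, adjusted p = 0.0298). A4-1, at 1.9, lay within the 4 dpi range, and with Rn18s-rs5 as a covariate the difference of Gdf7 was -0.32. Its call was lost in 7 of 22 alternatives, the fit of the 9 animals and those without A3-3, A4-3, A4-4, A10-1, A10-4 or A9-2, and its direction turned in 2 more. The semaphorin gene Sema6a, a membrane-bound guidance cue, was at 36.8, 33.2, 32.1 and 28.8 and at 41.0, 59.9, 43.2, 41.1 and 49.1 (0.50 ± 0.11, SE, adjusted p = 0.00645), without overlap and within the fold limit. Lif, a cytokine that acts on neurons and glia, did not overlap either, at 0.7 to 1.1 and 1.2 to 2.2, with an adjusted p of 0.0849. Of 31 semaphorins, plexins and neuropilins 0 were SDEGs, and 5 were higher at an adjusted p under 0.05, among them Plxna1 at 0.35 and Plxna2 at 0.32. Vgf, a neuropeptide precursor that neurotrophins induce, rose from 31.2, 31.5, 30.1 and 30.3 to 39.3, 49.4, 54.4, 44.5 and 46.1 (0.59 ± 0.14, SE, adjusted p = 0.00816). The difference lay just past the fold limit of 0.585 (log2), and the call was lost in 9 of 22 alternatives, with pseudocount 1 and without A3-3, A4-1, A9-2 or A9-4 among them. All 4 dpi animals and the 28 dpi animals A3-1 and A4-3 lay below the sham range of 45.3 to 77.5. Gap43, the growth cone protein, was lower, at -0.49 (adjusted p = 0.0254), within the limit.

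In myelin, Myrf, the transcription factor that drives myelin genes, rose from 47.9, 47.0, 41.5 and 35.1 to 62.0, 77.1, 73.1, 58.0 and 67.9 (0.65 ± 0.13, SE, adjusted p = 0.00546). The other 13 genes of myelin and oligodendrocytes were not called, and the list's median was -0.13. Hspg2, the gene of the basement membrane proteoglycan perlecan, was the only SDEG of 26 genes of collagens and matrix, at 4.9 to 7.6 against 7.2 to 13.1 (0.80, adjusted p = 0.0106). Of the perineuronal net genes, those of the proteoglycans aggrecan and neurocan, Acan and Ncan, and of the glycoprotein tenascin-R, Tnr, differed by 0.32, 0.28 and 0.40, within the limit, with adjusted p of 0.0195, 0.0251 and 0.00706. Bcan, the gene of the proteoglycan brevican, did not pass, at -0.05. Of 8 cholinergic and motor neuron genes 0 were called, with all 8 above 0. A10-1 was the highest 4 dpi animal there, at 188.4 for the choline transporter gene Slc5a7 against 17.9, 41.3 and 55.7 in the other 4 dpi animals.

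Noncoding transcripts made up much of the rise. Of the 491 genes that rose 184 were protein-coding, 94 lincRNA, 81 antisense, 41 processed pseudogenes and 31 sense intronic, and the share that rose was 1.27% of protein-coding genes, 13.6% of lincRNA, 13.5% of antisense and 27.4% of sense intronic genes. Genes with predicted-gene or clone names were 298 of the 491, and 10.9% of the 2727 such genes tested rose, against 1.35% of the others. Of 13 nuclear long noncoding RNAs 2 rose, Cdr1 and Kcnq1ot1, and the median was 0.34. Cdr1, the locus of a circular RNA abundant in neurons, was at 29.4, 42.0, 47.3 and 64.7 at 4 dpi and at 123.6, 186.5, 85.8, 135.8 and 103.2 at 28 dpi (1.47 ± 0.30, SE, adjusted p = 0.00546). All its 31-base words occur in the antisense gene C230004F18Rik, so the value cannot be assigned to either strand, nor to a circular or linear RNA. For Cdr1 the 14 dpi animals A5-3 and A6-3 were at 114.4 and 143.9, within its 28 dpi range. The others at 14 dpi were at 30.8 to 61.4. Kcnq1ot1, the imprinted antisense transcript of Kcnq1, went from 279.5, 343.8, 345.7 and 273.1 to 411.7, 612.8, 453.1, 473.6 and 419.1 (0.60 ± 0.14, SE), a call lost in 7 of 22 alternatives. Malat1, a nuclear RNA, did not overlap between the groups (5215.6 to 5759.7 against 6028.0 to 9056.5), at 0.41, within the fold limit.

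Among the largest rises, Galntl6, Obox3, Dusp23, Oaz3, AA465934 and Srpk1 shared a pattern over the animals that Cdr1 and Shank1 did not. Galntl6, a gene of the glycosyltransferase family that starts mucin-type sugar chains, was at 13.5, 25.5, 14.7 and 31.1 at 4 dpi and at 185.3, 279.2, 86.6, 140.9 and 136.7 at 28 dpi (2.92 ± 0.63, SE, adjusted p = 0.00619). Obox3, an oocyte homeobox gene, was at 2.3, 3.4, 1.8 and 6.6 and at 23.4, 45.2, 13.5, 20.7 and 20.8 (2.67 ± 0.66, SE, adjusted p = 0.00969). Dusp23, a phosphatase gene, rose by 1.94, Oaz3, an antizyme gene of the testis, by 1.92, and AA465934 by 1.90, and all 3 were high in the same animals outside the 2 groups as Galntl6. Outside the 2 groups the values of Galntl6 also varied: 2 sham animals, A12-1 and A12-2, were at 98.0 and 131.0, the 7 dpi animal A7-3 at 118.1 and the 42 dpi animal A3-4, of the same label unit as 2 of the 28 dpi animals, at 237.1, while the other sham animals were at 16.5 to 21.6. At 14 dpi A5-3 and A6-3 lay between these, at 67.3 and 51.6 for Galntl6 and 10.8 and 9.2 for Obox3, near A4-1 at 86.6 and 13.5. Obox3 was high in the same 4 animals, at 16.2, 25.3, 25.5 and 42.1. Srpk1, a splicing-factor kinase gene, which rose by 0.87, was at 67.7, 80.6, 81.0 and 117.7 in them, against 40.2 to 44.4 at 4 dpi. High values of these genes were thus not limited to 28 dpi. Of the 31-base words of Oaz3 54.1% occur in another gene, chiefly Tdrkh, and 31.2% of those of Obox3, mostly in its pseudogenes, against 4.6% for Galntl6 and 0.290% for Dusp23. Pou2f2, Triml1, Shank1 and Srpk1 completed the 10 largest rises without overlap, with Pou2f2 at 1.03 and Triml1 at 0.94. Gm17374 at 2.78 and Gm26745 at 3.06 were among the 5 largest rises over all genes, and Gm26745 shares 98.9% of its 31-base words, chiefly with Psmd9.

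The remaining largest rises were in Rn18s-rs5, in AY036118, which lies within it, and in the tRNA synthetase gene Lars2 and the genes Mir6240 and Mir6236, whose values ran alike over these animals. Whether the reads of these 3 genes come from ribosomal RNA was not tested. AY036118 rose by 3.69, Rn18s-rs5 by 3.00, Mir6240 by 2.70, Lars2 by 2.47 and Mir6236 by 2.21. Mir6240 was at 2.0, 2.1, 2.1 and 7.9 at 4 dpi and at 24.2, 57.9, 6.2, 26.0 and 21.7 at 28 dpi. As in Rn18s-rs5, A9-4 was the highest 4 dpi animal and A4-1 the lowest 28 dpi animal in all 5, and the 2 groups overlapped. The difference of Rn18s-rs5 had an exact two-sided permutation p of 0.0317, where the smallest possible is 0.0159. It was 2.61 without A3-3 (exact permutation p = 0.0571). In the fit of the 9 animals Rn18s-rs5, Lars2 and Mir6236 lost their calls. Of the mitochondrial ribosomal RNAs mt-Rnr1, whose call was lost in 6 of 22 alternatives, that fit and those without A3-3 or A10-4 among them, rose by 1.19 and mt-Rnr2 was not called, at 0.42.

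The SDEGs were set beside ribosomal RNA animal by animal. Over the 491 genes that rose, the mean difference from the 4 dpi mean was 0.67, 1.24, 0.69, 0.82 and 0.72 at 28 dpi. Over the 247 genes that fell it was -0.38, -0.995, -0.31, -0.87 and -1.02. These means describe genes chosen on the same animals, A4-1 included, so their place there was fixed by the choice. A5-3 and A6-3 at 14 dpi, with Rn18s-rs5 at 419049.7 and 817779.7, as high as at 28 dpi, were at 0.09 and 0.28 over the genes that rose and at 0.06 and -0.15 over those that fell, where the highest 4 dpi animal was at 0.145 over the former. The 42 dpi animals A3-4 and A1-1, with Rn18s-rs5 at 457301.5 and 282927.4, were at 0.46 and 0.45 over the genes that rose and at -0.45 and -0.21 over those that fell. When A4-1 was left out of the fit, 530 genes rose and 507 fell, and in A4-1 itself 90.6% of the former lay above the sham mean, with a median of 0.52, whereas 49.5% of the latter lay below it, with a median of 0.00138. For A3-3 the shares were 94.6% and 83.9%, for A4-3 95.5% and 89.9%, for A4-4 90.1% and 90.0%, and for A3-1 89.2% and 64.7%. Against sham, the rises were thus present in A4-1 and A3-1, while levels below sham were clearest in A3-3, A4-3 and A4-4. A gene that was above sham at 4 dpi and returned to it has fallen, yet need not lie below sham. These shares therefore do not show which animals carried the falls from 4 dpi.

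**Figure D4:**
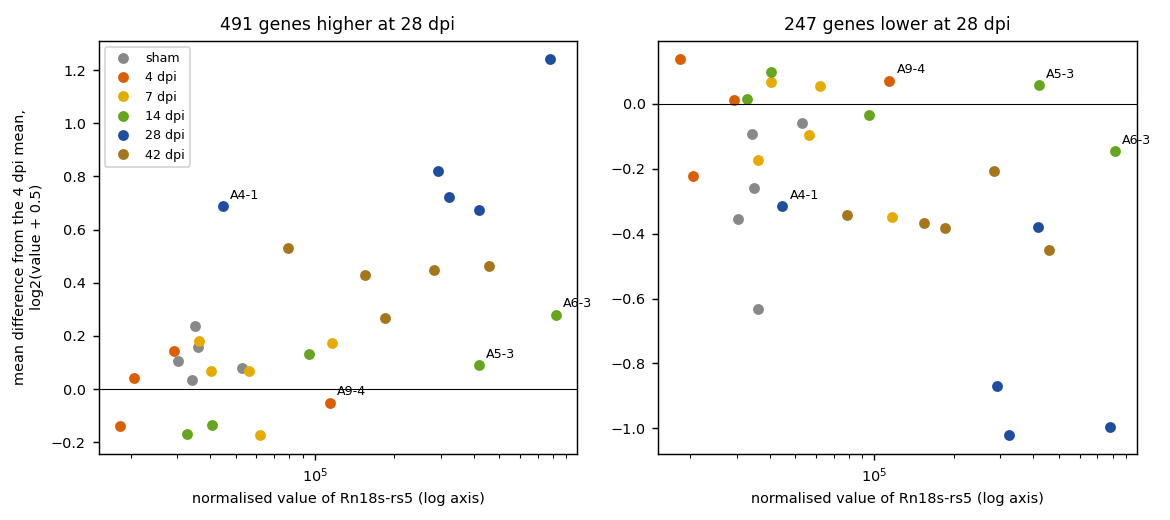
Mean difference from the 4 dpi mean on the log2(value + 0.5) scale over the 491 genes that rose (left) and the 247 that fell (right), against the normalised value of Rn18s-rs5 (log axis), 1 point per animal for all 29. A4-1 is low in Rn18s-rs5 and within the 28 dpi values on the left, as the choice of genes fixes, and among the animals high in Rn18s-rs5 the 14 dpi animals A5-3 and A6-3 lie nearer to the 4 dpi animals than the 42 dpi animal A3-4 does.

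The genes that rose lay above sham at 28 dpi rather than below it at 4 dpi: their median difference from sham was 0.66 at 28 dpi and -0.08 at 4 dpi, and 454 of 491 were farther from sham at 28 dpi. For the genes that fell, the medians were -0.49 at 28 dpi and 0.18 at 4 dpi, and 190 of 247 were farther from sham at 28 dpi. Over all genes 12391 of 16995 were farther from sham at 28 dpi. These comparisons share the sham animals.

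Animals outside the difference between 4 and 28 dpi were available at 7 and 42 dpi, 5 in each group, although in the fit of 29 animals they added to the spread behind the calls. Of the 491 genes that rose between 4 and 28 dpi 462 (94.1%) were also higher at 42 than at 7 dpi, with a median difference of 0.35 against 0.70. Of the 247 that fell 226 (91.5%) were also lower, with medians of -0.28 against -0.66. Over all genes the direction was shared by 75.3%. Of the genes called from the 9 animals alone, 158 of 163 (96.9%) and 34 of 39 (87.2%) shared the direction. Without A3-4, which carries a label unit of the 28 dpi animals, the shares of the SDEGs were 90.4% and 88.7%, against 74.0% over all genes, and those of the genes called from the 9 animals 90.2% and 79.5%. These further shares were added after seeing the data. Without predicted genes the shares were 93.3% and 91.5%. No gene of the 738 was called at 42 against 7 dpi by limma (0 at an adjusted p under 0.05), and 212 of the 491 and 67 of the 247 had an unadjusted p under 0.05, against 2928 of all 16995 genes. The difference between the 2 differences passed an adjusted p of 0.05 in 0 genes, and an unadjusted p under 0.05 in 109 of the 491 and 68 of the 247, against 1081 of all 16995 genes. The genes were chosen on one of these 2 differences, so their counts here are a description. Rn18s-rs5 was also higher at 42 dpi (78737.4 to 457301.5) than at 7 dpi (36201.9 to 116302.3), and its part in the shared direction was not tested. Mki67 and Top2a did not share it, at 0.10 and 0.12 between 7 and 42 dpi, nor did the medians of complement and Fc receptors (0.03), interferon-stimulated genes (0.02) and reactive astrocytes (0.00159). The medians of activated and homeostatic microglia did share it, at -0.17 and -0.14. Those of nuclear-encoded OXPHOS and of ribosomal proteins were -0.28 and -0.27.

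**Figure D5:**
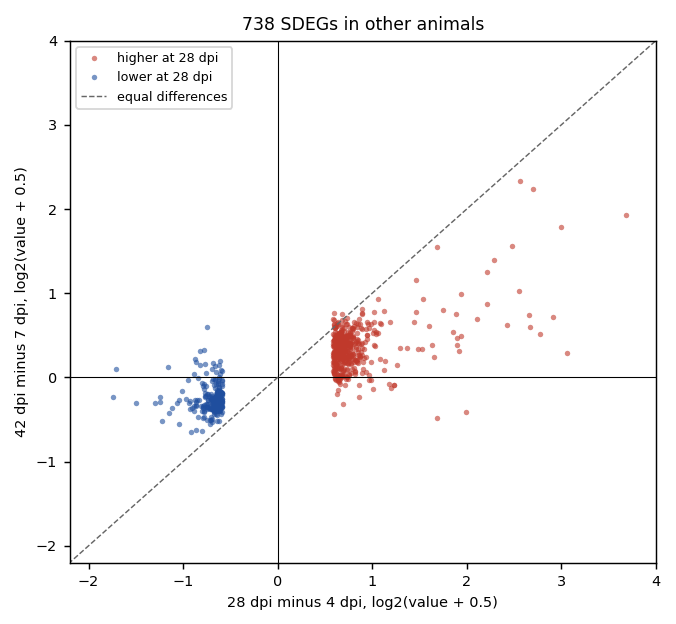
Difference between 42 and 7 dpi against that between 28 and 4 dpi, both on the log2(value + 0.5) scale, for the 738 SDEGs (red higher, blue lower at 28 dpi). Most points keep their sign, 462 of 491 and 226 of 247, and most lie nearer to 0 than the dashed line of equal differences.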

How the data were processed

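RNA of the intermediate layer of the denervated cervical hemicord was sequenced in 1 sample per animal, after removal of ribosomal RNA and with a library kit that does not mark strand. The authors quantified transcripts, summed them by gene, removed low genes and normalised with edgeR (version 3.14.0 and R 3.4.1 per the labels, mm10). The deposited values were read here as a score: normalised counts (CPM) rounded by the authors to steps of 0.1, whose sums differ between animals, so the depth is unknown and no counting interval was given. The authors' own fold changes and p-values, also in the table, were not used.

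Values were tested as log2(value + 0.5) with limma 3.58.1 (R 4.3.3) in 1 fit of 6 groups and 29 animals with a mean trend, and p-values were adjusted by Benjamini-Hochberg over 16995 genes. The limits for an SDEG were 0.05 for the adjusted p and 1.5 for the fold. On simulated data for 28 against 4 dpi over 16995 genes, 81.5% of 200 changes of 0.8 (log2) and 96.5% of 200 changes of 1.5 were recovered. A mean over a list or over SDEGs is the mean log2 difference from the 4 dpi mean. Genes were named by rule: those the study names for its phases, the 10 largest rises and falls among SDEGs without overlap, with a mean of at least 5 and no predicted-gene symbol, the 5 largest without limits, up to 4 per gene list by adjusted p, and Rn18s-rs5 with the genes set beside it. Some genes that the rule names are not reported here. Genes outside the rule were picked with their values in view. The comparison and the 43 gene lists were chosen with earlier results of these data known. Shared 31-base words were counted between annotated genes. Replicates were separate animals. The alternatives were other scalings, pseudocounts, filters and fold limits, a fit of the 9 animals, the label unit as a random block, Rn18s-rs5 as a covariate, length and GC correction, and leaving out each animal in turn.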

Additional observations from a re-analysis of the deposited data

Results flagged for a closer look

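In 138 groups of 4 or 5 animals, the gap between the most distant animal and its neighbour was compared with the range of the group. Chance flags about 1 in 20 groups. All flags are listed here, and their number is near that share. At 4 dpi A9-4 stood apart in Lars2 (gap of 0.94 of the range), Mir6240 (0.968) and AY036118 (0.886), past Dixon's limit for 4 animals. At 28 dpi A4-1 stood apart in AY036118 (0.712), at 10596.6 against 71436.2 to 154760.9, past the limit for 5 animals. A3-3 stood apart in Pou2f2 (0.921), at 10.7 against 5.6 to 5.9. The mean over homeostatic astrocyte genes put A10-1 apart at 4 dpi (0.918), and that over collagens and matrix put A3-1 apart at 28 dpi (0.856).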

How the results depend on the processing

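The 491 higher and 247 lower SDEGs became 163 and 39 in a fit of the 9 animals, 61 and 14 with a fold above 2, 1401 and 1988 with no fold limit, and 0 and 0 with Rn18s-rs5 as a covariate (2915 genes at an unadjusted p under 0.05). They became 43 and 11123 with the same sum in every animal. With that sum relative to the median of all genes they were 79 and 5, and with A4-1 as the only 28 dpi animal, assumed to vary like the other groups, 3 and 1, both chosen after seeing the data. Median centring gave 162 lower and pseudocount 1 gave 288 higher genes. Leaving out 1 animal gave 167 to 659 higher and 87 to 507 lower genes, and a difference of Rn18s-rs5 of 2.61 to 3.64. The direction changed for mt-Rnr2 (-1.31, quantile normalization), for Gdf7 (-0.32 with the covariate, -0.291 with A4-1 alone), and for the list medians of neurotrophins and growth (-0.0308 corrected for length and GC content, -0.0361 with A4-1 alone) and reactive astrocytes (0.171 with A4-1 alone). The cause was not tested. Of 4895 values of named genes 4490 kept direction and side of the threshold, 340 lost the call and 62 gained it, and 959 list medians moved by less than 1 SD. No paired analysis was possible because the replicate labels are not shared between the groups. The depth is unknown, and values under 1 rest on few steps of 0.1.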

Other observations

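Of 105 genes of ion channels 2 rose, the potassium channel genes Kcnmb1 and Kcng1, and 0 fell, with a median of 0.07. Of 22 genes of the Notch pathway 0 were called, with 3 higher and 1 lower at an adjusted p under 0.05. Of 34 genes of the TGF-beta and BMP pathway 1 rose (Gdf7, lost in 7 of 22 alternatives and turned in 2) and 1 fell (Id1, a BMP target, at -0.69, lost in 8 of 22 alternatives). Of 16 circadian clock genes and 15 immediate early genes 0 were called, and immediate early genes had a median of -0.16. Among 50 histone genes 2 fell, Hist1h2ae and Hist1h2ab, which lost their calls in 9 and 12 of 21 alternatives, the fit of the 9 animals among them, and among 31 splicing factors 0 were called while 13 were lower at an adjusted p under 0.05, with a median of -0.21.

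Genes annotated to the Y chromosome had values in these female animals, and they were picked with their values in view. Kdm5d lay between 4.9 and 12.2 over all 29 animals, Uty between 3.0 and 8.0 and Uba1y between 2.5 and 7.4. Uty and Uba1y were SDEGs, at 0.62 and 0.60 (adjusted p = 0.0146 and 0.0170 with limma, each call lost in 7 of 22 alternatives), and 61.6% of the 31-base words of Uba1y occur in other genes. The predicted gene Gm28587, at 0.3 to 1.9 over all animals, was also an SDEG, at 0.75 (adjusted p = 0.0113 with limma). Xist, made from the inactive X chromosome, lay between 91.1 and 241.1 in all animals.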
